A study of Mus musculus with 4 samples.

Results

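The cytosolic ribosomal protein genes were examined in mitral valve RNA from mice carrying 0, 1 or 2 mutant alleles of Fbn1. Members were taken by symbol: every probe set annotated to 1 gene whose symbol is Rpl or Rps followed by a digit, or Rplp0, Rplp1, Rplp2 or Rpsa, with the S6 kinases (Rps6k) and pseudogenes left out. This gave 48 genes of 12394 on the array, 26 of the large and 22 of the small subunit, on 100 probe sets. Another 102 probe sets named a ribosomal protein gene together with a second gene and were not used. As a result 30 ribosomal protein symbols, among them Rpl3, Rpl5, Rplp1, Rps12 and Rps23, were not analysed here. Of the 48 genes, 46 (24 large, 22 small) passed the filter on mean intensity over all 4 arrays and were tested.

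Total RNA of mitral valve was read on 4 arrays of 1 colour. The WT group was 1 array labelled Fbn1 +/+, the Het group 2 arrays labelled Fbn1 C1039/+, and the Hom group 1 array labelled Fbn1 C1039G/C1039G. C1039G replaces a cysteine of fibrillin-1, the main protein of extracellular microfibrils, at residue 1039, and the Het label does not write the substituted residue. The labels do not give age, sex, strain, or whether an array holds 1 animal or a pool. WT and Hom have no replicate, so the only measured spread between arrays of 1 genotype is that between the Het arrays, which may be technical. Precision is limited by how few arrays there are. All comparisons with WT share the same WT array.

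The ribosome is built from a large subunit, which joins amino acids, and a small subunit, which reads the mRNA, and each holds a set of ribosomal proteins around its rRNA. Genes for these proteins are transcribed at high levels in nearly every cell, and cells tend to make the proteins in matched amounts. Their mRNAs typically begin with a C followed by a run of pyrimidines, the 5′ terminal oligopyrimidine tract through which TOR signalling adjusts their translation. They serve as a common reading of how much of its RNA a tissue devotes to making ribosomes.

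The start of such mRNAs was looked up for the members, to show the feature that defines the class. RefSeq promoter sequences (GRCm38.p6) were matched by symbol for 42 of the 48 genes, with 50 transcript starts. The windows printed run from 20 bases before the start to the 15th base of the transcript, 5′ to 3′ on the gene's own strand, for 4 named genes with the run across the start and 4 without it near the start. Capitals mark the run, a C followed by at least 4 bases that are C or T, where that C lies within 5 bases of the start. Like stretches further from the start are left in lower case.
Rps10: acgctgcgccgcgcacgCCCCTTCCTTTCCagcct
Rpl35: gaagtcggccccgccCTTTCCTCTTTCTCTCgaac
Rps27: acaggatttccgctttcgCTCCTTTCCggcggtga
Rps6: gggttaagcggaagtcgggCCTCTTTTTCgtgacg
Rps7: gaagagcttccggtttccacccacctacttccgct
Rps28: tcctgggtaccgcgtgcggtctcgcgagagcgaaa
Rpl27: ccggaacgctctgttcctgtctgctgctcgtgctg
Rpl41: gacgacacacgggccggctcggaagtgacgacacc

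These windows lie at chr17:27635230-27635264 on the minus strand (Rps10), chr2:39005117-39005151 on the minus strand (Rpl35), chr3:90213634-90213668 on the minus strand (Rps27) and chr4:86857353-86857387 on the minus strand (Rps6). The windows without the run near the start lie at chr12:28635939-28635973 (Rps7), chr17:33824548-33824582 (Rps28) and chr10:128549154-128549188 (Rpl41), all on the minus strand, and at chr11:101442225-101442259 on the plus strand (Rpl27). The annotated first base was a C followed by at least 4 pyrimidines for 8 of 50 member starts (16.0%), against 2.51% of all 32851 starts in the table. In 7 of the 8 the run reached back before the annotated start, and in 1 it began there. When the C could lie within 5 bases of the start, the shares were 42% of member starts and 18.3% of all starts. They were 28.0% and 8.96% within 2 bases, and 56.0% and 30.7% within 10 bases. Large and small subunit genes had the run within 5 bases at 42.9% of 28 starts and 40.9% of 22 starts. Only the transcript's strand was searched. The run and the 4 distances were chosen after the data were seen, and 7 short strings of C and T were searched as well, from 10 bases before to 12 after the start. Each of the 7 was held by more of the member starts (4% to 16%) than of all starts (0.244% to 4.70%). Among tested members, the 20 genes with a run within 5 bases had median log2 differences from WT of -0.11 on Het replicate 1, -0.17 on Het replicate 2 and -0.06 on Hom. The corresponding medians of the 20 genes with an entry and no run within 5 bases were -0.05, -0.20 and -0.16. The order of the 2 medians thus differed between arrays. The split rests on the annotated start, so a gene without a run within 5 bases may still make an mRNA with the tract. The sets also differed in brightness, with 6 genes with a run and 10 without at a mean intensity of 5000 or more. Whether the tract itself goes with the differences was therefore not tested.

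No ribosomal protein gene was called in any comparison of genotypes. In limma's fit across all 7342 genes tested, with Benjamini-Hochberg adjustment at 0.05, 0 of 46 members passed in Hom against WT, where 1 gene of all tested did (0.0136%). Het against WT called 0 members and 9 genes in all (0.123%), and Hom against Het 0 members and 9 genes (0.123%). At an unadjusted p under 0.05 the member counts were also 0, with 60, 153 and 112 genes of all tested in Hom against WT, Het against WT and Hom against Het. The lowest unadjusted member p was 0.276, 0.165 and 0.176 in that order. The fit had 1 residual degree of freedom, and the median standard error of a member's log2 difference was 0.54 in Hom against WT and 0.47 in the others, of the size of the larger differences described here. A call here is therefore a loose one. In simulated arrays the same fit also called unchanged genes. Their noise was shuffled over genes, so they do not measure how loose the calls are in these data.

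With arrays centred on the median gene, the members as a group sat slightly below WT on every mutant array. On the log2 scale the median member difference from WT was -0.11 on Het replicate 1, -0.20 on Het replicate 2 and -0.13 on Hom, while the medians of all genes tested were -0.01, -0.01 and 0.00. The lower side held 28 of 46 members on Het replicate 1 (51.2% of all genes), 30 on Het replicate 2 (50.7% of all genes) and 34 on Hom (49.6% of all genes). These medians depended on the scaling: after quantile normalization they were -0.05, 0.09 and 0.02, so that Het replicate 2 and Hom stood on the upper side. Between the Het arrays the median member difference, Het replicate 2 minus Het replicate 1, was 0.11, of the same order as these medians, with single genes from -1.77 to 0.99. Between the groups, the median Hom minus Het difference was 0.02, equal to that of all genes tested (0.02).

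**Figure D1:**
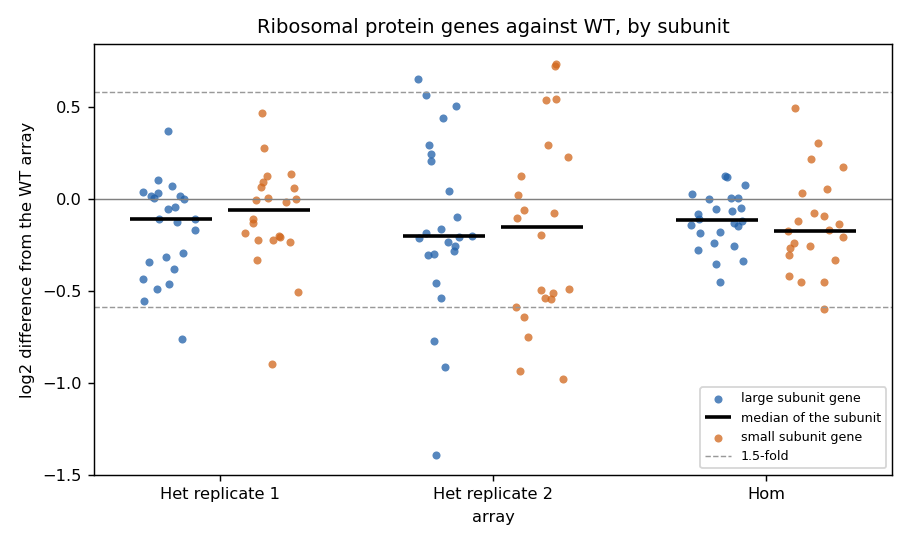
Log2 difference of each of 46 ribosomal protein genes from the WT array (vertical axis), on each of the 3 mutant arrays (horizontal axis). Each point is 1 gene, blue for the large and orange for the small subunit, black bars are subunit medians and dashed lines mark 1.5-fold; the points spread widest on Het replicate 2, from -1.39 to 0.74, and least on Hom, from -0.60 to 0.50.

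The medians of the subunits lay close together and their order differed between arrays. On Het replicate 1 the median was -0.11 for 24 large and -0.06 for 22 small subunit genes. The corresponding values were -0.20 and -0.15 on Het replicate 2, and -0.11 and -0.17 on Hom. The large median minus the small median was therefore -0.04, -0.05 and 0.06, which differ in sign between the Het arrays and Hom. Taken on the mean of the Het arrays it was 0.08, opposite in sign to both arrays taken singly. Between the Het arrays it was 0.27, which became 0.0781 with quantile normalization and 0.108 when probe sets were averaged. Without probe sets that can bind several transcripts the Hom minus WT value turned to -0.00288 and the Het minus WT value to -0.0733. On Het replicate 2 the interquartile range over genes was 0.74 log2 units for the small subunit, 0.52 for the large subunit and 0.67 for all genes tested. The SD over genes was 0.52 and 0.48, and the full range was wider in the large subunit (-1.39 to 0.65) than in the small (-0.98 to 0.74).

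On Het replicate 2 and Hom, but not on Het replicate 1, the brightest class of members had the lowest median. Intensity classes describe the signal of a probe set, not the amount of 1 mRNA against another, and were chosen after the data were seen. The 18 members with a mean intensity of 5000 or more (8 large, 10 small) were below WT on Het replicate 2 in 18 of 18 cases, with a median of -0.50 and a range from -0.98 to -0.10. They were also below WT on Hom in 18 of 18 cases, with a median of -0.22, and in 11 of 18 on Het replicate 1, with a median of -0.05. The other 26 genes of that brightness did likewise, with 24 below WT on Het replicate 2 (median -0.60), 20 on Hom (-0.18) and 12 on Het replicate 1 (0.02). Within this class the large subunit median on Het replicate 2 was -0.25 and the small subunit median -0.54. The 15 members between 2000 and 5000 had a median of 0.04 on Het replicate 2 and -0.22 on Het replicate 1, where the 146 other genes of that range stood at -0.13 and -0.10. The 13 dimmer members had medians of -0.01, 0.13 and 0.07 on Het replicate 1, Het replicate 2 and Hom.

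The highest deposited intensity was 8241 on Het replicate 2, against 17082 on WT, 18920 on Het replicate 1 and 14036 on Hom. The 99th percentiles were closer together, at 2886 on Het replicate 2, 3176 on WT, 2923 on Het replicate 1 and 2920 on Hom. Quantile normalization, which gives every array the same distribution, brought the 18 brightest members to medians of 0.04 on Het replicate 2, -0.02 on Hom and -0.02 on Het replicate 1, and moved the 15 members between 2000 and 5000 to 0.29 on Het replicate 2. Across the 46 members the Hom minus WT difference had a Pearson correlation of -0.62 with the log2 intensity on Het replicate 1. With the log2 intensity on Hom it was -0.15 for Het replicate 1 minus WT, -0.30 for Het replicate 2 minus WT and -0.19 for Het replicate 2 minus Het replicate 1. Across the 7296 other genes the 4 values lay between -0.07 and 0.06, over a different spread of intensity. Below a mean intensity of 500 lay 6026 of these genes and 10 of the 46 members. Genes share their arrays, and these correlations are descriptions.

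**Figure D2:**
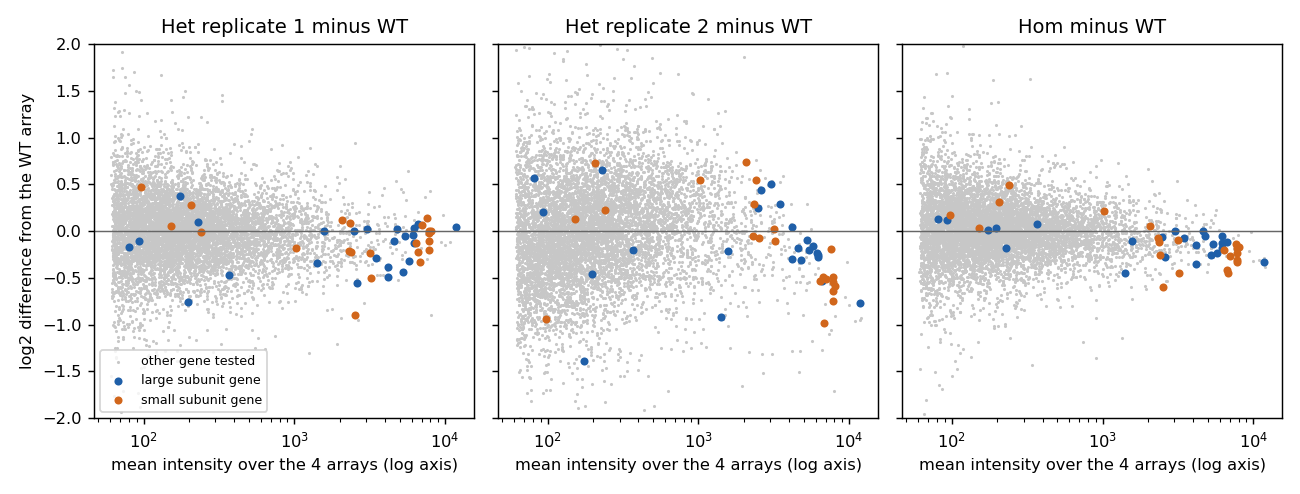
Log2 difference from the WT array (vertical axis) against the mean intensity over the 4 arrays (horizontal log axis) for each mutant array, with large subunit genes in blue, small subunit genes in orange and other tested genes in grey. The brightest members lie below 0 on Het replicate 2 and Hom, and the grey points of like intensity do too, whereas quantile normalization brings these members to medians of 0.04 and -0.02; 14, 29 and 6 other genes beyond 2 log2 units are not drawn.

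Of the 46 members, 17 were below WT on all 3 mutant arrays (20.5% of all genes) and 4 were above it on all 3 (20.2% of all genes). The 4 were Rpl37a, Rps25, Rps4l and Rps9. Rpl37a was above WT by only 0.017 log2 units on Het replicate 1 and 0.005 on Hom. Its Hom minus WT sign turned under several other settings, such as centring on all probe sets. The lower set was 8 large and 9 small subunit genes, among them Rpl4, Rpl6, Rpl7, Rpl7a, Rps14, Rps18 and Rps3a1. This holds for the probe set that stands for each gene. Dimmer probe sets of Rpl7 and Rps14 lay above WT on Hom, by 0.26 and 0.08 log2 units. A dimmer probe set of Rps18 lay 0.21 above WT on Het replicate 2. With quantile normalization 6 members stood below WT on all 3 arrays (20.1% of all genes under that scaling) and 7 above (21.8%). Under each of 4 scalings the same 5 genes, Rpl22, Rps28, Rps29, Rps3a1 and Rps7, were below WT on all 3 arrays. The share of all genes that stayed below under each of the 4 was not counted. Under the scalings taken singly it was 16.1% to 20.5%, so the 5 are not shown to be more than any genes would give. Het replicate 2 was the lowest of the 4 arrays for 22 members (35.7% of all genes) and the highest for 15 (35.1% of all genes). Another 5 members, Rpl10a, Rpl27, Rpl8, Rps15 and Rps26, were below WT on Het replicate 1 and Hom but above it on Het replicate 2 (13% of all genes). For 20 of 46 members the Het arrays lay on opposite sides of WT, as they did for 43.8% of all genes.

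Differences of at least 1.5-fold were few on Het replicate 1 and Hom and more common on Het replicate 2. On Het replicate 1 this size was reached by 2 members below WT (5.65% of all genes) and 0 above (4.62%). The corresponding counts were 8 below (12.6%) and 3 above (11.5%) on Het replicate 2, and 1 below (2.98%) and 0 above (3.96%) on Hom. Between the Het arrays themselves 7 members were at least 1.5-fold lower on replicate 2 (13.7%) and 6 at least 1.5-fold higher (13.6%). The 13 members apart by this size between the Het arrays, 28.3%, are close to the share of all genes, 27.3%.

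Among large subunit proteins, the acidic stalk recruits elongation factors to the ribosome. Rplp0, which anchors the stalk, had intensities of 5766 on WT, 5548 on Het replicate 1, 5009 on Het replicate 2 and 5233 on Hom. Rplp2, a protein of the stalk itself, had 5091, 5152, 4120 and 4925 on the same arrays. Both lay within a narrow band, with Het replicate 2 lowest, and quantile normalization turned the Hom minus WT and Het minus WT signs of both. Rpl11, which with Rpl5 and the 5S rRNA forms a particle that can bind the p53 regulator Mdm2, had 2395, 2398, 2842 and 2293, with Het replicate 2 highest.

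A further group sits at the rim of the tunnel through which the new chain leaves. Of 5 tested (Rpl19, Rpl22, Rpl35, Rpl38, Rpl39), 5 had a Het mean below WT and 4 a Hom value below WT, and 0 were called. Most members lay on that side, 33 of 46 in Het minus WT (51.1% of all genes) and 34 in Hom minus WT (49.6%). The counts of 5 genes therefore do not set this group apart. Their medians were -0.34, -0.26 and -0.18 on Het replicate 1, Het replicate 2 and Hom, and -0.24, 0.13 and -0.01 after quantile normalization. Rpl22, an RNA-binding protein of the large subunit that mice can replace with a paralog, had 1857 on WT, 1466 and 985 on Het replicates 1 and 2, and 1359 on Hom. WT was highest and both Het arrays and Hom lay below it, by 1.27-fold, 1.89-fold and 1.37-fold. The log2 Het minus WT difference was -0.63 with a standard error of 0.47. A second, dimmer probe set for Rpl22 was lower than WT on Het replicate 2 and Hom and higher on Het replicate 1.

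Rpl39, a small protein lining the tunnel, had 237 on WT and 242 on Hom but 140 and 172 on the Het arrays. WT and Hom nearly coincided and both Het arrays lay below them, 1.69-fold and 1.37-fold below WT. The log2 Hom minus Het difference was 0.64, and limma's adjusted p rounded to 1. Rpl35, which sits at the tunnel exit where chaperones and the signal recognition particle dock, had 6014, 4446, 5616 and 5031 on WT, Het replicate 1, Het replicate 2 and Hom. All 6 of its probe sets were below WT on Het replicate 1 and on Hom, and 3 of 6 on Het replicate 2.

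The widest range of the large subunit was that of a dim probe set. Rpl27a, a protein of the large subunit body, had 189 on WT, 244 on Het replicate 1, 71.8 on Het replicate 2 and 190 on Hom. Het replicate 2 alone was low, 3.40-fold below Het replicate 1, and WT and Hom were equal to within 1 intensity unit. Rpl27, a different protein despite the like symbol, had 2710, 1845, 3676 and 2234 on WT, Het replicate 1, Het replicate 2 and Hom. It was 1.99-fold higher on Het replicate 2 than on Het replicate 1, with WT and Hom between them, and its 3 probe sets all had this order against WT.

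Rpl41, a very short basic peptide, had 13800, 14187, 8088 and 10932 on WT, Het replicate 1, Het replicate 2 and Hom. Het replicate 2 was 1.71-fold below WT and Hom 1.26-fold below. Quantile normalization turned the sign between the Het arrays, from -0.81 to 0.11 on the log2 scale. Rpl37a, a zinc-binding protein, had 2719, 2751, 3867 and 2729, so that only Het replicate 2 stood apart. Rpl14 and Rpl12, both dim, had Hom minus WT log2 differences of 0.13 and 0.12, the highest of the large subunit.

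**Figure D3:**
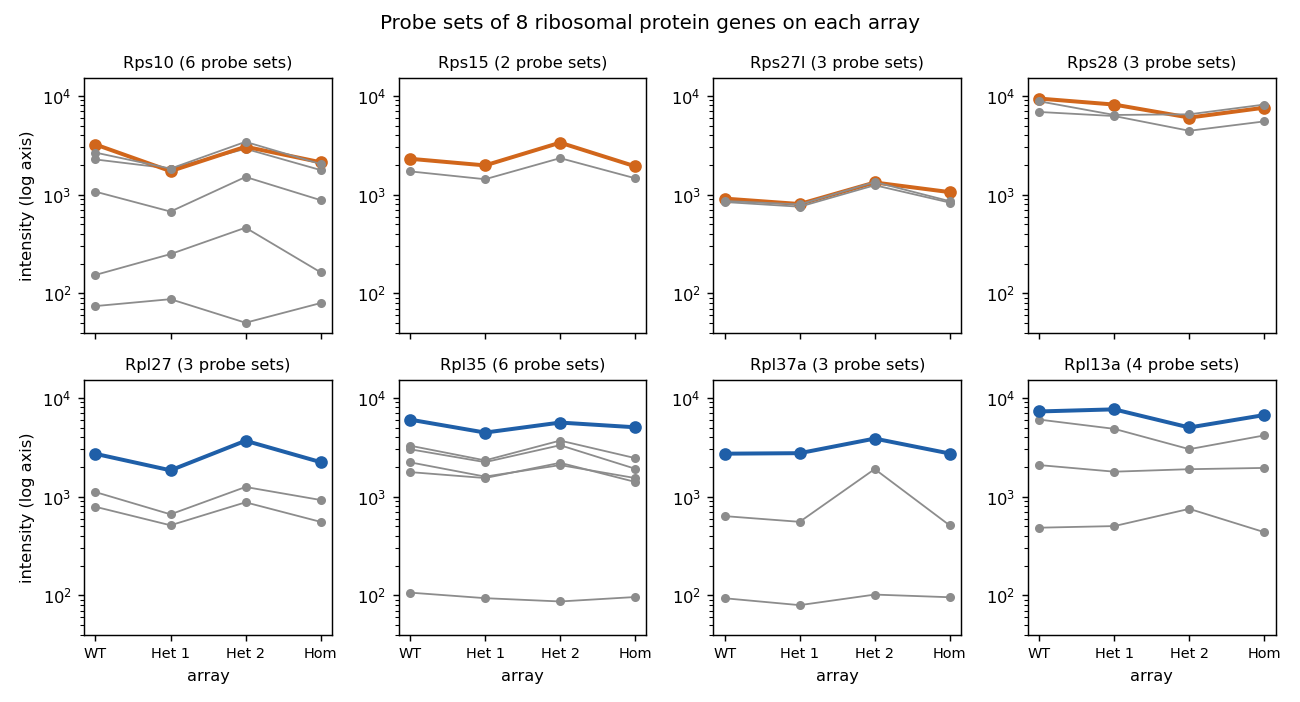
Intensity (vertical log axis) on the 4 arrays (horizontal axis) for every probe set that passed the filter in 8 ribosomal protein genes. The thick coloured line is the probe set that stands for the gene and grey lines are its other probe sets; the 3 lines of Rpl27 all lie below WT on Het replicate 1 and Hom and above it on Het replicate 2, while those of Rps10 and Rpl13a diverge on Het replicate 2.

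In the small subunit, Rps10 was the member furthest below WT on Hom. Rps10 lies on the head of the small subunit and is among the proteins marked with ubiquitin when ribosomes collide. Its intensities were 3216 on WT, 1728 on Het replicate 1, 3055 on Het replicate 2 and 2127 on Hom. WT and Het replicate 2 were high and the other arrays low, 1.86-fold below WT on Het replicate 1 and 1.51-fold on Hom. The Het mean of 2392 ± 939 (SD, n = 2) spanned the Hom value. The log2 Hom minus WT difference was -0.60 with a standard error of 0.55, and it was -0.24 when all probe sets of the gene were averaged. Of its 6 probe sets 4 were below WT on Het replicate 1, 2 on Het replicate 2 and 4 on Hom.

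Rps20, also of the head, resembled it, with 3821, 2693, 3551 and 2796 on WT, Het replicate 1, Het replicate 2 and Hom. Both of its probe sets that passed were below WT on each mutant array. Rps15, which reaches into the decoding region, had 2306, 1976, 3358 and 1933 on the same arrays. Het replicate 2 was highest in both probe sets, 1.70-fold above Het replicate 1 in the brighter. Rps2 and Rps3, at the entry of the mRNA channel, had 9066, 9076, 6025 and 8068, and 7866, 8224, 5521 and 6533. WT and Het replicate 1 were close in both genes and Het replicate 2 was lowest.

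Rps7 had the widest difference from WT among the bright members of the small subunit. Rps7 is a protein of the small subunit body that takes part in processing its rRNA. Its intensities were 8976 on WT, 7123 on Het replicate 1, 4546 on Het replicate 2 and 6557 on Hom. WT was highest, and the mutant arrays lay 1.26-fold, 1.97-fold and 1.37-fold below it. The log2 Het minus WT difference was -0.66 with a standard error of 0.47. A dimmer second probe set had Het replicate 2 above WT.

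At the mRNA exit, Rps28 had 9381, 8156, 6024 and 7585 on WT, Het replicate 1, Het replicate 2 and Hom. Its 3 probe sets were all below WT on each of the 3 arrays. Rps29, a zinc-binding protein of the head, had 8041, 6897, 5724 and 6006, and its 3 probe sets were likewise all below WT. Rps14 had 8912, 8816, 6119 and 7550. Rpsa, also known as the laminin receptor precursor, had 7869, 8652, 6874 and 7167, with Het replicate 1 above WT and the other arrays below. Under quantile normalization Rpsa changed sign in Hom minus WT, in Het minus WT and between the Het arrays.

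Rps6, the small subunit protein phosphorylated by S6 kinase below TOR, had 210 on WT, 209 on Het replicate 1, 246 on Het replicate 2 and 297 on Hom. Hom was highest, 1.41-fold above WT, which was the highest Hom minus WT difference of the small subunit (0.50 on the log2 scale, standard error 0.54). This rests on 1 probe set, and the other Rps6 probe set did not pass the filter. Rps25, which some viral and cellular mRNAs need for internal initiation, had the narrowest range of all members, with 146, 152, 159 and 150. Rps19, the gene most often mutated in Diamond-Blackfan anaemia, had 2237, 2382, 2742 and 2057.

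Several genes have a close paralog. Rps27l, a paralog of Rps27 that p53 can induce, had 911 on WT, 803 on Het replicate 1, 1327 on Het replicate 2 and 1060 on Hom. All 3 of its probe sets were above WT on Het replicate 2 and below it on Het replicate 1, while on Hom 1 was above WT and 2 were below, by 0.02 or less on the log2 scale. Rps27 itself had 96.0, 133, 50.2 and 108 on the same arrays, the opposite order between the Het arrays, with a 2.65-fold lower value on replicate 2. Rps27 was read by 1 dim probe set.

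Rps4x, the X-linked small subunit protein, had 9236, 9266, 5497 and 7340 on WT, Het replicate 1, Het replicate 2 and Hom. Its paralog Rps4l had 162, 196, 268 and 201. Rps4x was lowest on Het replicate 2 and Rps4l highest there, 1.68-fold below and 1.65-fold above WT. Rpl22l1, the paralog of Rpl22, had 1656, 1662, 1429 and 1539, a narrower range than Rpl22. Rpl7 had 5028, 3588, 4080 and 3941, and its paralog Rpl7l1 203, 218, 319 and 179, so that WT was the highest array for the first and Het replicate 2 for the second. A dimmer probe set of Rpl7 was highest on Hom, with 2420 against 2020 on WT. Averaging the 2 probe sets of Rpl7l1 turned its Hom minus WT sign.

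The 2 members that did not pass the filter are paralogs with restricted expression. Rpl3l, known from heart and skeletal muscle, had intensities of 10.1, 3.93, 9.85 and 8.82 on WT, Het replicate 1, Het replicate 2 and Hom, all below the floor of 19.0 under which values were not told apart. Rpl39l, known from testis, was below the floor on WT (5.90) and Hom (6.15) and above it on the Het arrays (34.6 and 42.2), 1.82-fold and 2.22-fold over the floor. No fold was taken against values under the floor. The nearest tested members to the filter, at a mean intensity of 61.8, were Rpl14 (mean 80.7) and Rpl12 (93.6).

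Probe sets of 1 gene did not always point the same way. Of 19 genes with several probe sets that passed, all probe sets lay on 1 side of WT in 13 genes on Het replicate 1, in 10 on Het replicate 2 and in 10 on Hom. Rps9, one of the members above WT on every array, had 1727, 1881, 2879 and 1791. Its 3 probe sets disagreed on each array, and without probe sets that can bind several transcripts the Het replicate 2 minus Het replicate 1 difference turned from 0.61 to -0.32 on the log2 scale. Of the 100 member probe sets, 42 carry a name ending that marks binding to several transcripts, and 16 of the 46 genes were represented by such a probe set. Ribosomal protein genes have many near-identical processed pseudogenes, so these intensities may include other transcripts. Over all 87 probe sets that passed, the median log2 differences from WT were -0.18, -0.09 and -0.15 on Het replicate 1, Het replicate 2 and Hom.

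Other genes of translation gave a mixed picture, with 0 called in every list in all 3 comparisons. The list of translation elongation factors and related genes (9 tested) had medians of -0.11, -0.42 and -0.17 on Het replicate 1, Het replicate 2 and Hom. After quantile normalization these were -0.10, -0.06 and -0.05. The list also holds Eef1e1, Eef2k and Tpt1, which are related genes and stood at 0.62, -0.67 and -0.96 on Het replicate 2. No median was taken without them. Eef1a1, which brings aminoacyl-tRNA to the ribosome, had 14502, 14756, 7609 and 11140 on WT, Het replicate 1, Het replicate 2 and Hom. Mitochondrial ribosomal proteins (72 tested), which build a separate ribosome for mitochondrial mRNAs, had medians of 0.03, 0.23 and 0.01. On Het replicate 2 their median thus lay above that of all genes (-0.01) and that of the cytosolic members below it, but after quantile normalization both lay above, at 0.16 and 0.09. In Hom minus WT they ran from -1.02 (Mrps35) to 0.80 (Mrpl2).

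The list of initiation factors and related genes (32 tested, among them the repressors Eif4ebp1 and Eif4ebp2) had medians of 0.10, 0.17 and 0.00. Ribosome biogenesis factors (62 tested), which process and assemble rRNA in the nucleolus, had 0.09, 0.00 and 0.05. The sign on Het replicate 2 for the biogenesis factors, and on Hom for the initiation factor list, depended on the scaling. The TOR signalling list (10 tested) had -0.20, -0.19 and 0.17, with the translational repressor Eif4ebp2 at 239 on WT, 115 and 106 on the Het arrays and 182 on Hom. The list's Het replicate 2 median was 0.01 when arrays were centred on all probe sets. Other mRNAs with a terminal oligopyrimidine start (17 tested) had -0.07, 0.01 and -0.10, of which the Het values also depended on the scaling. Fau, whose protein includes a ribosomal protein of the small subunit but whose symbol lies outside the rule, had 2862, 3087, 3414 and 2851.

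**Figure D4:**
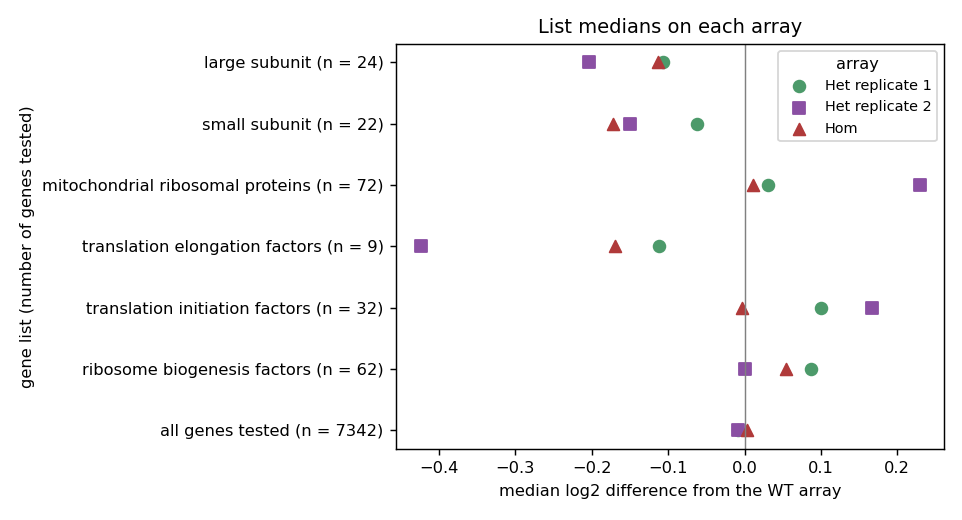
Median log2 difference from the WT array (horizontal axis) of gene lists of translation and of all genes tested (vertical axis, number of genes in brackets), 1 symbol for each mutant array. The list of elongation factors and related genes and both ribosomal subunits lie left of 0 on every array. The mitochondrial ribosomal proteins lie right of it, furthest on Het replicate 2 at 0.23. After quantile normalization the ribosomal protein genes lie at 0.09 on Het replicate 2 and 0.02 on Hom.

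The genes whose log2 profile over the 4 arrays lay nearest to the median member profile were Rgs2, Zmynd8, Mark4, Katna1 and Irs1, with root mean square distances from 0.006 to 0.012 log2 units. Irs1 had 263, 246, 233 and 241 on WT, Het replicate 1, Het replicate 2 and Hom. None is a ribosomal protein gene, and 4 arrays leave many genes with like profiles.

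The arrays also differed in cell type markers and in control probe sets. Marker sums take every listed gene on the array, tested or not, by its brightest probe set. They were taken only with arrays centred on the median gene, and bright genes weigh most in them. The 26 other genes at a mean intensity of 5000 or more had a Het replicate 2 minus WT median of -0.60. After quantile normalization it was -0.12, so lower sums on that array depend in part on the scaling. Valve interstitial and fibroblast markers (17 of 17 tested) had summed intensities of 75017, 62343, 43627 and 62915 on WT, Het replicate 1, Het replicate 2 and Hom, so the labelled tissue's markers were present on each array. Cardiomyocyte markers (20 of 20 tested) summed to 55700, 69651, 26754 and 55313. On Het replicate 2 macrophage markers (18 of 18 on the array, 15 tested) summed to 8187 against 5293 on WT. Endothelial markers (13 of 13 tested) summed to 5363 on that array against 8058 on WT. Platelet markers (8 of 12 on the array, 7 tested) summed to 1474 on WT, 2539 on Het replicate 1, 3982 on Het replicate 2 and 1308 on Hom. Of these, Itgb3 was below the floor on all arrays. Adipocyte markers (7 of 9 on the array, 2 tested) summed to 306 on Het replicate 2 and 847 to 941 on the others. Of the 7, Adipoq, Lep, Pparg, Cidec and Ucp1 were below the floor on all arrays. Erythroid markers (7 of 13 on the array, 3 tested) summed to 3253 on Het replicate 2 against 1474 on WT, with Epb42 below the floor on all arrays. The Actb 3′ to 5′ ratio, a sign of RNA length, was 3.04 on Het replicate 2 and 2.16 to 2.25 on the others. The Gapdh ratio did not separate that array as clearly, with 4.18 on WT, 3.19 on Het replicate 1, 4.65 on Het replicate 2 and 3.84 on Hom. The hybridisation controls averaged 560 on Het replicate 2 against 1146 to 1682 on the others. These values move with the Het replicate 2 differences of the members, and their part in them was not tested. In RNA from whole valve, fewer cells of a type and less RNA per cell cannot be told apart.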

How the data were processed

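The deposited values were linear intensities, 1 for each of 22690 probe sets on 4 arrays. The software behind them is not given in the sources used here. By the deposited values, every array had the same mean, near 150.1, once the top and bottom 2% were trimmed.

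Arrays were centred on the median of all probe sets. Genes with a mean intensity at or above the 50th percentile of all values (61.8) were kept, each as its brightest probe set. Arrays were then re-centred on the median tested gene, since the first centring left that of Het replicate 2 higher than WT by 0.19. Values were floored at the 25th percentile (19.0) and log2 transformed. Of the probe sets, 20393 named 1 gene, 691 several and 1606 none, and 20364 of the first matched the reference by gene identifier. The 64 control probe sets were left out.

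Groups were compared with limma 3.58.1 in R 4.3.3 (lmFit and eBayes on 3 groups, Benjamini-Hochberg adjustment), tested on simulated data. Other scalings, filters, floors, probe set rules, fits and arrays left out were tried. Named genes were the 3 highest and lowest of each subunit per comparison, members 1.5-fold from WT or Hom, the range extremes, paralogs with their parents, the stalk and Rpsa; other members were named after their values were seen. The members and lists were chosen with earlier results of these data known.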

Additional observations from a re-analysis of the deposited data

How the results depend on the processing

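No ribosomal protein gene was called under any alternative that could be tested, while calls over all genes ran from 0 to 11. With probe sets as rows, 1 member had an unadjusted p under 0.05 in Het against WT and 1 in Hom against Het. Without a Het array no residual degree of freedom is left, so those settings gave values and no test, and Hom against WT could not be fitted on its own arrays alone. The cause of the shifts below was not tested. The median member difference Hom minus WT moved from -0.13 to 0.0182 with quantile normalization. Het minus WT moved from -0.16 to -0.0538 centred on all probe sets, 0.00999 with quantile normalization and -0.0859 with no filter. Hom minus Het moved from 0.02 to -0.113 centred on all probe sets and -0.0840 with no filter, and leaving out 1 Het array gave -0.0621 to 0.0687. Het replicate 2 minus Het replicate 1 moved from 0.11 to 0.306 centred on all probe sets, 0.243 with no filter and 0.00205 with the filter at the 75th percentile. Centring on all probe sets also raised the median of all genes on Het replicate 2 against WT to 0.19, and relative to it the members' median was -0.19. The large minus small subunit difference in Hom minus WT (0.06) was 0.0304 with quantile normalization, 0.0794 with no filter, 0.0528 when probe sets were averaged and -0.00288 without probe sets that can bind several transcripts. For Het minus WT (0.08) it was 0.0530 with quantile normalization, 0.105 with the filter at the 75th percentile, 0.00718 when probe sets were averaged and -0.0733 without those that can bind several transcripts. For Hom minus Het (-0.01) these 4 settings gave -0.0436, -0.0152, 0.0164 and 0.0190, and between the Het arrays (0.27) they gave 0.0781, 0.210, 0.108 and 0.328. Leaving out 1 Het array gave subunit differences of 0.0386 to 0.0593 in Hom minus WT, -0.0531 to -0.0448 in Het minus WT and 0.00511 to 0.104 in Hom minus Het. No paired analysis was possible because WT and Hom hold 1 array each and the labels pair no arrays between groups.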
